A study of Mus musculus with 6 samples.

Results

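The genes described here encode the enzymes of drug and toxin handling: cytochromes P450 (*Cyp*), glutathione transferases (*Gst*), UDP-glucuronosyltransferases (*Ugt*), sulfotransferases (*Sult*), aldehyde dehydrogenases (*Aldh*) and alcohol dehydrogenases (*Adh*). They were chosen by symbol alone, as every array probe whose only gene symbol begins with one of these family names, leaving out *Cyp51*, *Cyp26a1*, *Cyp26b1* and *Aldh1a2*, the genes of sterol synthesis, retinoic acid breakdown and retinoic acid synthesis. This gave 119 probes for 114 genes, of 13840 genes that have a probe of one symbol among the 33012 probes on each array. RNA came from the distal part of the midgut of mouse embryos at E13.5, and *Id2*+/+ and *Id2*-/- littermates were compared with 3 arrays each. *Id2* encodes an inhibitor of basic helix-loop-helix transcription factors, and the knockout is not limited to a cell type. The mutant line was kept on an inbred and on a mixed background, and the sources do not say which one gave these samples. Nor is it stated whether a sample is 1 embryo, so the p-values measure only the spread between these samples. The study asked what loss of *Id2* does to gene expression in the segment that forms intestine. *Id2* itself has no probe of that name among those used, so its loss was not checked in the signals.

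These enzymes work in sequence. Phase I enzymes, mainly P450s, add or uncover a reactive group on a lipid-soluble molecule, and alcohol and aldehyde dehydrogenases oxidize alcohols and the aldehydes made from them. Phase II enzymes then couple glutathione, glucuronic acid or sulfate to the product, which makes it soluble for export. The adult intestinal epithelium and the liver are known for high levels of many of them, and several are induced by nuclear receptors and the aryl hydrocarbon receptor. Many members also serve the body's own substrates, such as retinal, bile acids, steroids and dopamine.

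Every value is the log2 of the median-normalized signal of a probe, in which 0 is the array's median spot, and every difference is *Id2*-/- minus *Id2*+/+ on that scale. A signal is called above background when the scanner software's signal-to-noise score is at least 3. A gene was tested when one of its probes had no flagged spot on the 6 arrays and reached this score 3 times out of 3 in *Id2*+/+, in *Id2*-/- or in both. Where several probes qualified, the one with the highest mean stands for the gene. Of the 114 genes 40 were tested, 25 were above background on fewer arrays, 42 on no array, and 7 were left out because a spot was flagged. A signal below background does not show that a transcript is absent, and signals of different probes do not measure relative transcript levels, so the signal served only to pick which genes of a family are shown. One array of each genotype, in both cases the one numbered 1, stood apart from the rest. Over all tested probes r was 0.984 between these arrays, 0.909 to 0.931 between them and the other 4, and 0.979 to 0.988 within those 4. What the arrays of one number share is not stated. The comparison was therefore also made without them.

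On all 3 *Id2*+/+ arrays, 39 of the 114 genes were above background. This is 34.2%, against 50.2% of all 13840 genes named on the array. The families differed widely. Among glutathione transferases 10 of 14 genes (71.4%) were above background on these 3 arrays and among aldehyde dehydrogenases 11 of 17 (64.7%), whereas only 10 of 61 P450 genes (16.4%) were. The share was 3 of 7 for *Ugt2* genes (42.9%), 3 of 11 for sulfotransferases (27.3%) and 2 of 4 for alcohol dehydrogenases (50%). These shares describe the probes of this array and were not tested against each other.

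**Figure D1:**
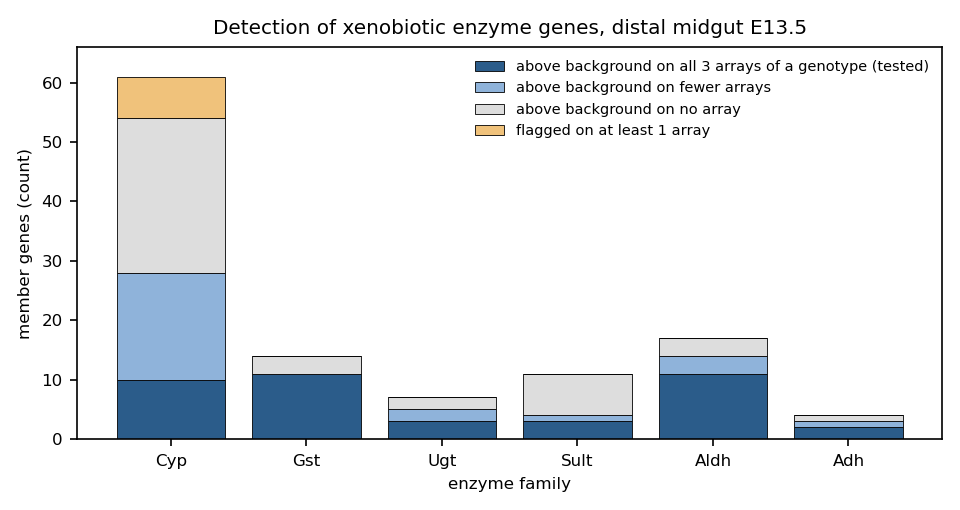
Number of genes of each enzyme family (vertical axis, count) by how their probes read on the 6 arrays: tested, above background on fewer arrays, above background on no array, or flagged on at least 1 array. Of 61 *Cyp* genes 10 were tested and 26 were above background on no array, while 11 of 14 *Gst* genes and 11 of 17 *Aldh* genes were tested.

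The P450 genes above background on no array included *Cyp1a2* and *Cyp1b1*, whose enzymes oxidize aromatic compounds and estrogens, and *Cyp2b10*, a classic target of the receptor Nr1i3. They also included *Cyp17a1* and *Cyp21a1*, which act in steroid hormone synthesis, *Cyp8b1*, the sterol 12-alpha-hydroxylase of bile acid synthesis, and *Cyp4a14*, a fatty acid hydroxylase. *Cyp1a1*, the usual reporter of the aryl hydrocarbon receptor, exceeded background on a single array of each genotype. *Cyp27a1*, the mitochondrial sterol 27-hydroxylase, was above background on 2 arrays of each genotype, and *Cyp2c29* on 1 array of *Id2*+/+ and 2 of *Id2*-/-. The flagged genes were all P450s: *Cyp2b9*, *Cyp2d9*, *Cyp2e1*, *Cyp2f2*, *Cyp2g1*, *Cyp2j13* and *Cyp3a41a*. Of the sulfotransferases *Sult1b1*, *Sult1c1*, *Sult1c2*, *Sult1e1*, *Sult2a8*, *Sult2b1* and *Sult3a1* were above background on no array. The same held for *Gsto2*, *Gstp3* and *Gstt4* among the glutathione transferases, *Ugt2a3* and *Ugt2b1* among the glucuronosyltransferases, *Aldh3a1*, *Aldh3b3* and *Aldh5a1* among the aldehyde dehydrogenases, and for *Adh7*, the alcohol dehydrogenase of stomach and esophagus.

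Between the genotypes, no member passed the test without regard to array number. In limma with Benjamini-Hochberg adjustment over all 12741 tested probes, 0 of the 40 tested genes had an adjusted p under 0.05, as did 0% of all tested probes. At an unadjusted p under 0.05 there was 1 member, *Sult1d1*, where 1.84% of all tested probes were at that level. The means differed at least 2-fold for 2 of the 40 genes, *Sult1d1* and *Cyp3a13*, both lower in *Id2*-/-, beside 0.856% of all tested probes that were at least 2-fold lower and 0.699% that were at least 2-fold higher. With the array number as a block, limma called *Sult1d1* and *Cyp3a13* lower and 0 members higher, where 1.12% of all tested probes were called lower and 1.06% higher. With quantile normalization added to the block 0 members were called, and the adjusted p was 0.251 for *Sult1d1* and 0.476 for *Cyp3a13*.

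*Sult1d1*, which encodes a cytosolic sulfotransferase that acts on dopamine and other phenolic amines, had log2 signals of 2.45, 3.58 and 3.66 on the *Id2*+/+ arrays numbered 1, 2 and 3 and of 0.25, 1.73 and 0.78 on the *Id2*-/- arrays. The lowest *Id2*+/+ array lay above the highest *Id2*-/- array, and in each genotype the array numbered 1 was the lowest. The means were 3.23 ± 0.68 (SD, n = 3) and 0.92 ± 0.75 (SD, n = 3), a 4.96-fold lower signal in *Id2*-/-. The log2 difference was -2.31 (standard error 0.48, 95% confidence interval -3.44 to -1.18) with an unadjusted p of 0.00181 and an adjusted p of 1 in limma without the block. By pair of same-numbered arrays it was -2.20, -1.85 and -2.88, and with the block the adjusted p in limma was 9.29e-14. The blocked fit gave every tested probe the same standard error, 0.27, so its p-values do not reflect the spread of a single gene. The study singled out this gene on the same samples, so its direction here is not independent evidence. By qRT-PCR in E13.5 intestine, the study also reported *Sult1d1* as markedly decreased in *Id2*-/- embryos. It was the only one of the 40 tested members whose genotypes did not overlap with *Id2*-/- below, where 1.29% of all tested probes had that order.

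*Cyp3a13* encodes a P450 of the CYP3A subfamily, which oxidizes many drugs and steroids in liver and gut. Its log2 signals were 0.76, 2.91 and 3.06 on the *Id2*+/+ arrays and -0.03, 0.71 and 1.44 on the *Id2*-/- arrays. Here the genotypes overlapped, because the *Id2*+/+ array numbered 1 read below the *Id2*-/- array numbered 3. The means of 2.24 ± 1.29 (SD, n = 3) and 0.71 ± 0.73 (SD, n = 3) differed by -1.53 (standard error 0.67, 95% confidence interval -3.11 to 0.04), a 2.9-fold lower signal with an unadjusted p of 0.0545 in limma. The pair values were -0.78, -2.20 and -1.62, and the adjusted p in limma was 1 without the block and, with the standard error of 0.27 common to all probes, 4.78e-06 with it. Leaving out each array in turn, the difference ranged from -1.13 without the *Id2*+/+ array numbered 3 to -2.28 without the *Id2*+/+ array numbered 1, and with both arrays numbered 1 left out it was -1.91, a 3.76-fold lower signal.

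Both genes lie on chromosome 5, far apart from each other, and the 250 bases before their transcription start sites are shown because these were the members with the lowest signal in *Id2*-/- relative to *Id2*+/+. The sequences are from RefSeq on GRCm38.p6, written 5′ to 3′ on the strand of the gene, and end at the base before the start site.
Sult1d1, chr5:87569007-87569256, minus strand: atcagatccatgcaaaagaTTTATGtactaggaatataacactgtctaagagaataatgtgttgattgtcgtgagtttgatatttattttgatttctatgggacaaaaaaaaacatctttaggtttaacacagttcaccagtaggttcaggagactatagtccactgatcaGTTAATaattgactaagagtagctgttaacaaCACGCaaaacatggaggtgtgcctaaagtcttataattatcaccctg
Cyp3a13, chr5:137921620-137921869, minus strand: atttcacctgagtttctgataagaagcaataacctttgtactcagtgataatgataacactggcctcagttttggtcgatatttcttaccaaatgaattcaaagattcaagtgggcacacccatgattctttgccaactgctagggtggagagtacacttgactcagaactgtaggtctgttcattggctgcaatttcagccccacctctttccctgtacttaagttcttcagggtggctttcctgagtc
Capitals mark matches to a set of 5 letter patterns searched on both strands: TTTATG, a site of the intestinal Cdx factors, GTTAAT, part of the site of the hepatic and intestinal factor HNF1, GCGTG, the core bound by the aryl hydrocarbon receptor, TGACNNNGC, the antioxidant response pattern, and TATAAA. In the *Sult1d1* window TTTATG began 231 bases before the start site, GTTAAT 79 bases and CACGC, which is GCGTG on the other strand, 47 bases before it. The *Cyp3a13* window held 0 of the 5 patterns. Such matches are common. Of 32851 windows of this length 10.8% held TTTATG, 6.43% GTTAAT, 28.2% GCGTG, 10.2% TGACNNNGC and 12.4% TATAAA. Of the 40 windows found for 32 tested member genes, the shares were 7.5%, 7.5%, 22.5%, 7.5% and 7.5% in the same order.

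*Sult1d1* lies between *Sult1b1* and *Sult1e1*, beside a cluster of *Ugt2* genes and the casein genes. Both flanking sulfotransferases, *Ugt2a3* and the 4 casein genes with a probe were above background on no array, *Ugt2a1* on 1, and *Ugt2b5* on 2. *Ugt2b38* was the neighbor in this cluster with a tested probe and differed by -0.22. *Ugt2b5*, above background on *Id2*+/+ arrays only and not tested, differed by -1.43. Around *Cyp3a13* the 7 tested genes from *Nyap1* to *Zfp113* differed by between -0.06 and 0.23, and 0 of them were called with the block.

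**Figure D2:**
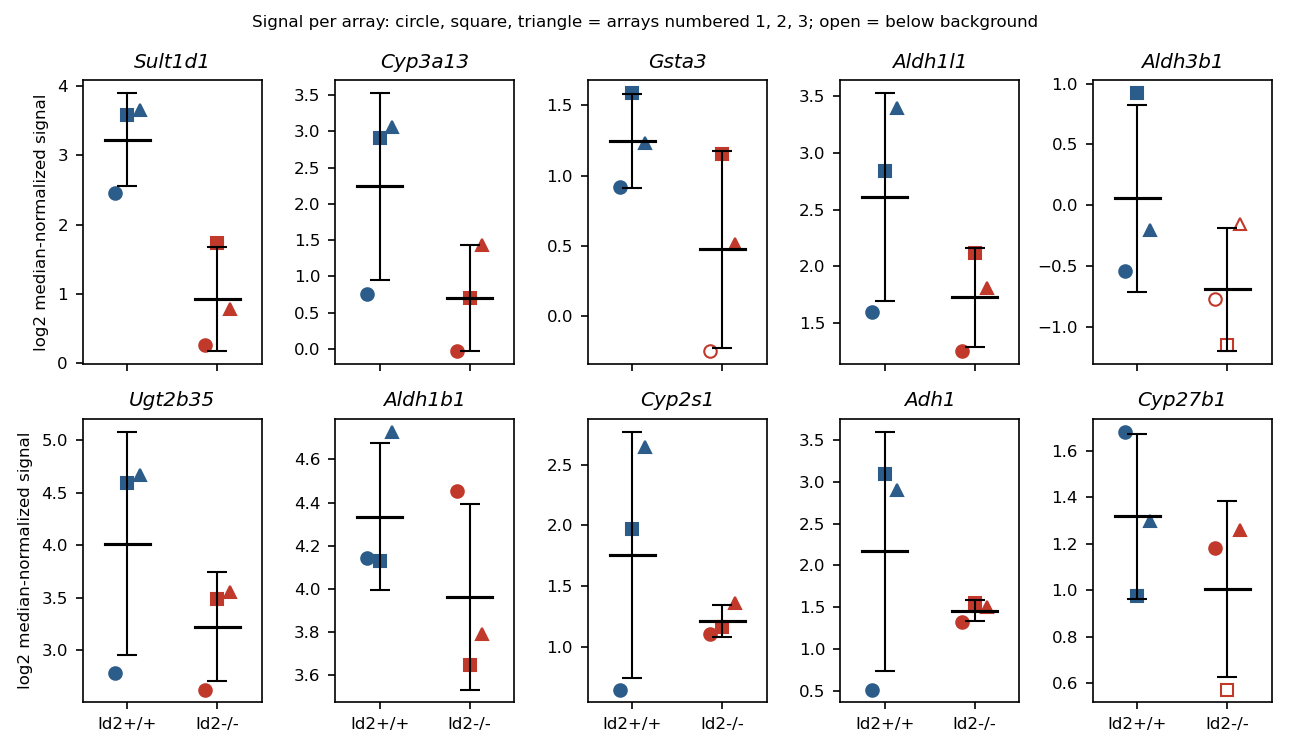
Log2 median-normalized signal (vertical axis, a separate scale for each gene) on the 3 *Id2*+/+ and 3 *Id2*-/- arrays for the 10 members with the smallest p; circles, squares and triangles are the arrays numbered 1, 2 and 3, open symbols are below background, bars are means and error bars the SD. *Sult1d1* is the one gene of the 10 whose genotypes do not overlap, and in *Cyp3a13*, *Aldh1l1*, *Ugt2b35*, *Cyp2s1* and *Adh1* the *Id2*+/+ array numbered 1 lies well below the other *Id2*+/+ arrays.

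Of the phase I genes, the other 9 tested P450s differed by between -0.54 and 0.26. *Cyp2s1*, an epithelial P450 that oxidizes retinoids and aromatic compounds, had log2 signals of 0.65, 1.97 and 2.65 in *Id2*+/+ and of 1.11, 1.17 and 1.36 in *Id2*-/-. The genotypes overlapped, and the difference was -0.54 with a standard error of 0.49. It was -0.10 without the *Id2*+/+ array numbered 3 and -1.10 without the one numbered 1. *Cyp27b1*, which makes the active form of vitamin D, read 1.68, 0.97 and 1.30 against 1.18, 0.57 and 1.26, the *Id2*-/- array numbered 2 being below background. Its difference of -0.31 (standard error 0.31) was negative in all 3 pairs, and lay between -0.48 without the *Id2*+/+ array numbered 2 and -0.10 without the *Id2*-/- array numbered 2. *Cyp7a1*, the rate-limiting enzyme of bile acid synthesis in liver, was above background on every array with each of its tested probes, and these differed by 0.26 and 0.37, neither of them past the test.

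For the 3 P450 genes shown because their own probes read brightest in *Id2*+/+, the genotypes overlapped. *Cyp2j6*, an epoxygenase of fatty acids, read 4.53, 5.55 and 5.65 in *Id2*+/+ and 4.87, 5.36 and 5.45 in *Id2*-/-, a difference of -0.02 (95% confidence interval -0.88 to 0.85). *Cyp7b1*, an oxysterol hydroxylase, read 3.64, 4.01 and 4.06 against 3.32, 4.01 and 4.03, a difference of -0.12 (-0.80 to 0.57). *Cyp39a1*, which hydroxylates another oxysterol, read 2.34, 2.51 and 2.80 against 2.88, 2.49 and 2.54, a difference of 0.09 (-0.51 to 0.68). Each of these intervals includes 0.

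The tested alcohol dehydrogenase genes were *Adh1*, which oxidizes ethanol and retinol, and *Adh5*, the glutathione-dependent formaldehyde dehydrogenase found in most cells. *Adh1* read 0.51, 3.09 and 2.897 in *Id2*+/+ and 1.32, 1.55 and 1.504 in *Id2*-/-. The *Id2*+/+ array numbered 1 was the lowest of all 6 and the other *Id2*+/+ arrays the highest, so the pairs gave 0.80, -1.53 and -1.39 and the means a difference of -0.71 (standard error 0.65). This value rested on single arrays, as it was -1.53 without the *Id2*+/+ array numbered 1, -0.25 without the one numbered 2 and -0.34 without the one numbered 3. *Adh5* read 1.13, 2.20 and 2.45 against 1.48, 2.10 and 1.99, a difference of -0.07 (-0.999 to 0.85).

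Aldehyde dehydrogenase genes were the most evenly split over all 6 arrays, with 7 of 11 higher and 4 lower and a median difference of 0.03. This split rested on the arrays numbered 1, as the pair medians were 0.36, -0.13 and -0.13. Without these arrays no difference of the 11 was above 0, and those of *Aldh1a1*, *Aldh9a1* and *Aldh6a1* were -0.19, -0.19 and -0.09. *Aldh1a1*, a retinal dehydrogenase, read 8.08, 9.41 and 9.23 in *Id2*+/+ and 8.93, 9.17 and 9.09 in *Id2*-/-, a difference of 0.16 (95% confidence interval -0.73 to 1.04). *Aldh9a1*, of carnitine synthesis, read 4.96, 6.83 and 6.64 against 5.45, 6.56 and 6.53, a difference of 0.03 (-1.28 to 1.35). *Aldh6a1*, the mitochondrial enzyme of valine breakdown, read 5.64, 6.35 and 6.39 against 5.94, 6.29 and 6.26, a difference of 0.04 (-0.65 to 0.72). In each of these the array numbered 1 was the lowest of its genotype.

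The lower aldehyde dehydrogenase genes were led by *Aldh1l1*, which encodes the cytosolic formyltetrahydrofolate dehydrogenase of folate metabolism. Its signals were 1.60, 2.84 and 3.39 in *Id2*+/+ and 1.26, 2.11 and 1.81 in *Id2*-/-, lower in all 3 pairs (-0.34, -0.72 and -1.58). The difference of -0.88 (standard error 0.48) had an unadjusted p of 0.110 in limma, and an adjusted p of 1 without the block and 0.0579 with it. It was -1.39 without the *Id2*+/+ array numbered 1 and -0.49 without the one numbered 3. Another probe of *Aldh1l1* went the other way, with a difference of 1.09. It reached the score on 0 arrays of *Id2*+/+ and 1 of *Id2*-/-, too few for a test. *Aldh3b1*, which oxidizes lipid aldehydes, was the member above background on all 3 arrays of one genotype and on none of the other. It read -0.54, 0.92 and -0.21 in *Id2*+/+ and -0.77, -1.15 and -0.15 in *Id2*-/-, where it was not well above background. The measured ratio was 1.68-fold lower, and the genotypes overlapped. The difference of -0.75 (95% confidence interval -1.80 to 0.30) had an unadjusted p of 0.137 in limma, and was -0.32 without the *Id2*+/+ array numbered 2. *Aldh1b1*, a mitochondrial acetaldehyde and retinal dehydrogenase, read 4.14, 4.13 and 4.73 against 4.45, 3.65 and 3.79, a difference of -0.37 (standard error 0.32). It ranged from -0.62 without the *Id2*-/- array numbered 1 to -0.17 without the *Id2*+/+ array numbered 3.

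Of the phase II genes, the glutathione transferases had the highest share of tested genes, 11 of 14, of which 8 were lower in *Id2*-/- and 3 higher (median difference -0.10). *Gsta3*, an alpha-class transferase, read 0.92, 1.59 and 1.23 in *Id2*+/+ and -0.25, 1.16 and 0.51 in *Id2*-/-, where the array numbered 1 was below background. It was lower in all 3 pairs, with a difference of -0.77 (standard error 0.40) and an unadjusted p of 0.0906 in limma. Without the *Id2*-/- array numbered 1 it was -0.41, and without the one numbered 2 it was -1.11. *Gsta4*, which conjugates the lipid peroxidation product 4-hydroxynonenal, was the opposite case. It read 5.10, 5.12 and 4.995 in *Id2*+/+ and 5.41, 5.31 and 5.15 in *Id2*-/-, so every *Id2*-/- array was above every *Id2*+/+ array. The difference was small, 0.22 (95% confidence interval -0.31 to 0.74), and 2.73% of all tested probes had that order without overlap.

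*Gstm5*, a mu-class transferase, read 6.21, 6.66 and 6.77 in *Id2*+/+ and 6.44, 6.60 and 6.47 in *Id2*-/-, a difference of -0.05 (-0.64 to 0.54). *Gstp1*, the pi-class transferase common in embryonic and tumor tissue, read 6.54, 5.05 and 5.28 against 6.78, 5.07 and 4.89, a difference of -0.04 (-1.46 to 1.38). In *Gstp1* the arrays numbered 1 stood above the other 4, and the genotypes differed by much less than the arrays did. *Gstm4* was tested through *Id2*-/-, with 2 *Id2*+/+ and 3 *Id2*-/- arrays above background, and differed by 0.00 (-0.94 to 0.94).

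The *Ugt2b* genes with a tested probe encode transferases of glucuronic acid to steroids, bile acids and drugs, and all 3 had lower means in *Id2*-/-, none of them past the test. *Ugt2b35* read 2.78, 4.59 and 4.67 in *Id2*+/+ and 2.62, 3.49 and 3.55 in *Id2*-/-. It was lower in all 3 pairs, by -0.16, -1.10 and -1.12, and the difference was -0.79 (standard error 0.55). It was -1.41 without the *Id2*+/+ array numbered 1 and -0.47 without the one numbered 3. *Ugt2b34* read 4.60, 6.75 and 7.17 against 5.03, 6.09 and 6.26, a difference of -0.38 (standard error 0.69). *Ugt2b38* read 0.08, 0.30 and 0.26 against 0.52, 0.95 and -1.50, the last of these below background, and differed by -0.22. A further gene, *Ugt2b5*, was above background on the *Id2*+/+ arrays numbered 2 and 3, at 1.79 and 1.36, and on no *Id2*-/- array, where it read -0.95, -0.58 and 0.14, and it was not tested. The *Ugt1a* probe carries 8 symbols and is no member, so the *Ugt1a* enzymes are not described.

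The sulfotransferases tested beside *Sult1d1* were close to equal between the genotypes. *Sult2a2*, of the family that sulfates hydroxysteroids and bile acids, read 6.05, 6.70 and 6.91 in *Id2*+/+ and 6.27, 6.42 and 6.69 in *Id2*-/-, a difference of -0.09 (95% confidence interval -0.80 to 0.62). *Sult5a1* read 4.38, 3.98 and 3.86 against 4.16, 4.21 and 4.10, a difference of 0.08 (-0.49 to 0.65). Another probe of *Sult5a1* went the other way, with a difference of -0.70, but reached the score on 2 arrays of *Id2*+/+ and 1 of *Id2*-/-, too few for a test. The interval of *Sult1d1*, -3.44 to -1.18, overlaps neither of theirs, but the difference between the genes was not itself tested.

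**Figure D3:**
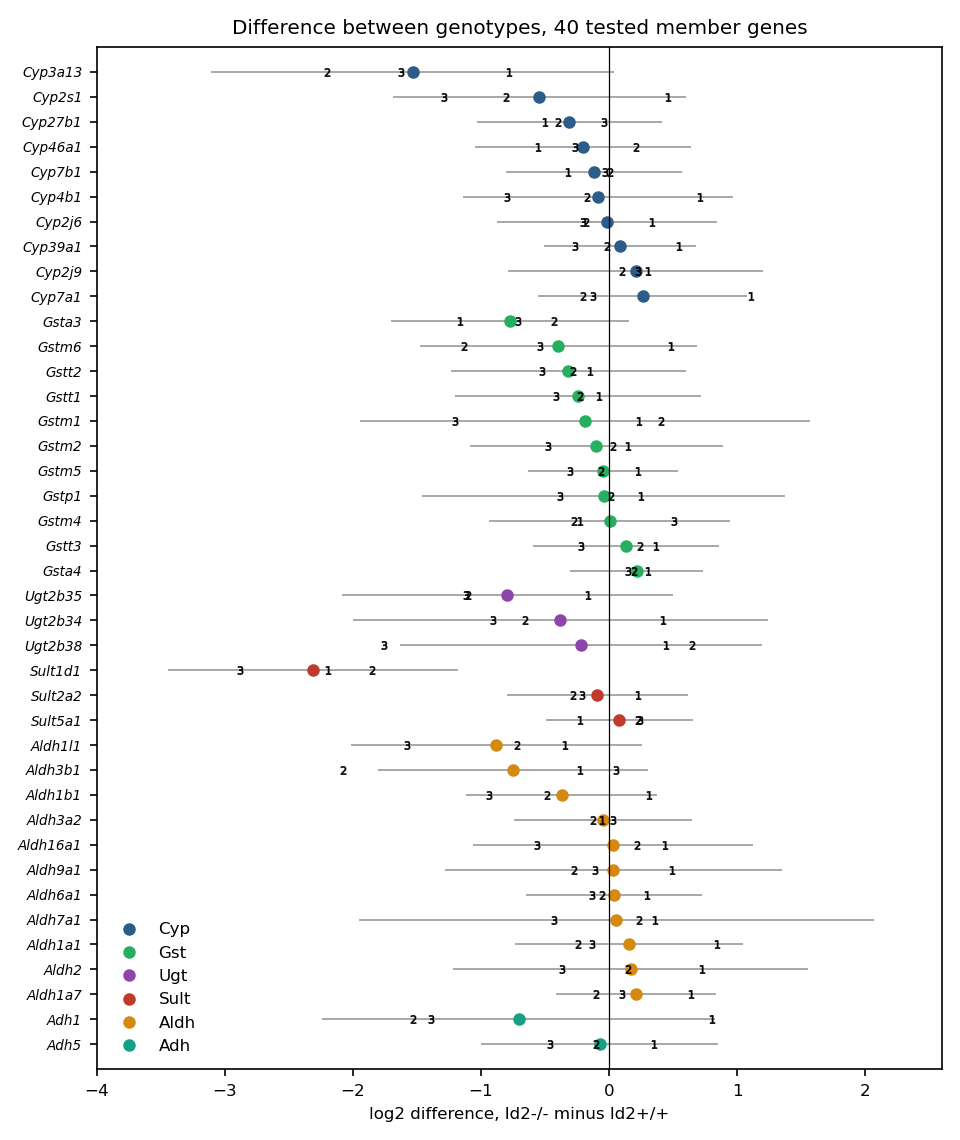
Log2 difference between the genotypes (horizontal axis, *Id2*-/- minus *Id2*+/+) of the 40 tested genes, with a point for the difference of the means, a line for its 95% confidence interval from limma, and the digits 1, 2 and 3 for the pairs of same-numbered arrays. The interval of *Sult1d1* (-3.44 to -1.18) is the only one that leaves out 0, and the digit 1 lies to the right of 2 and 3 for 29 of the 40 genes, as in *Adh1* (0.80, -1.53 and -1.39).

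Across the 40 genes 26 differences were negative and 14 positive, with a median of -0.09 where the median of all tested probes was 0.04. The remaining 30 genes, outside the 10 with the smallest p, differed by between -0.40 and 0.26. This split of signs depended on the arrays numbered 1. Without them the median of the members was -0.21, and only *Gstt3*, *Gstm4*, *Cyp2j9*, *Gsta4* and *Sult5a1* were above 0. In all 3 pairs of same-numbered arrays 8 genes were lower, *Sult1d1*, *Cyp3a13*, *Gsta3*, *Aldh1l1*, *Ugt2b35*, *Cyp27b1*, *Gstt1* and *Gstt2*, where 5.64% of all tested probes were. The 2 genes that were higher in all 3 pairs were *Gsta4* and *Cyp2j9*, where 11.8% of all tested probes were. The pairs differed in their medians, which were 0.30, -0.18 and -0.37 for the members in the pairs numbered 1, 2 and 3 and 0.35, -0.04 and -0.19 for all tested probes.

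The distance of the arrays numbered 1 from the others showed in single genes. In 4 members the array numbered 1 read at least 2-fold below the mean of the other arrays in both genotypes, where 3.34% of all tested probes did. For *Ugt2b34* it was lower by 2.35 in *Id2*+/+ and by 1.15 in *Id2*-/-, and *Cyp3a13*, *Sult1d1* and *Aldh9a1* were the others. In another 4 members it read at least 2-fold above in both genotypes, where 9.00% of all tested probes did. *Aldh7a1*, which breaks down lysine and aldehydes, was 2.11 higher in *Id2*+/+ and 2.57 higher in *Id2*-/-. *Gstm1* was 1.57 and 2.20 higher, *Aldh2*, the mitochondrial acetaldehyde dehydrogenase, 1.08 and 1.92, and *Gstp1* 1.37 and 1.81. For these 4 genes the genotypes differed by between -0.19 and 0.17, so the spread of array 1 from the others exceeded the difference between the genotypes.

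**Figure D4:**
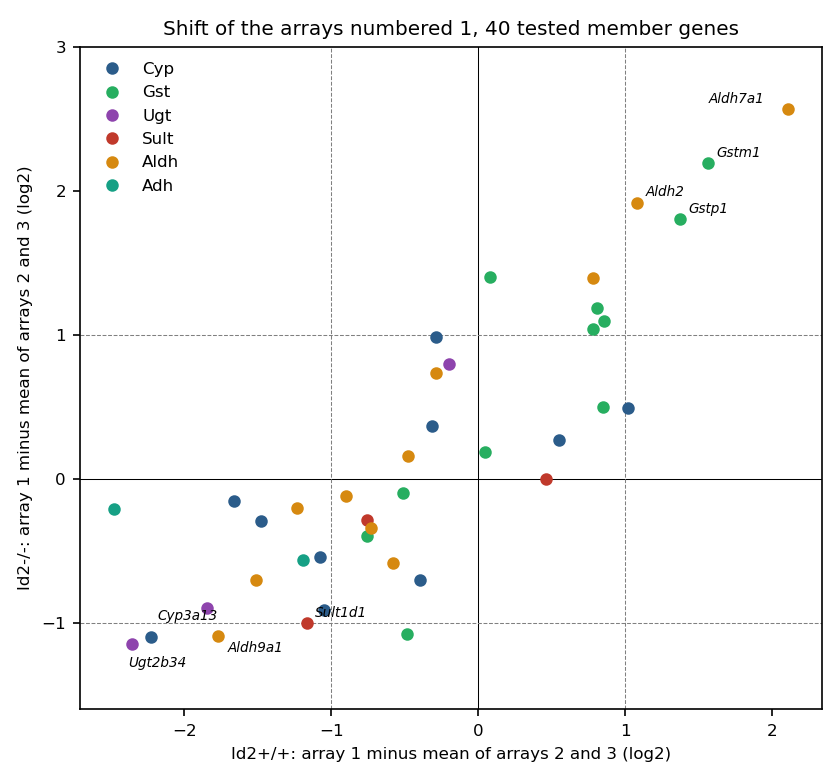
Array numbered 1 minus the mean of arrays 2 and 3 (log2) in *Id2*+/+ (horizontal axis) and *Id2*-/- (vertical axis) for the 40 tested genes, colored by family; dashed lines mark a 2-fold difference, and genes past it in both genotypes are named. *Aldh7a1*, *Gstm1*, *Gstp1* and *Aldh2* lie at the upper right and *Ugt2b34*, *Cyp3a13*, *Aldh9a1* and *Sult1d1* at the lower left.

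Without the arrays numbered 1, a comparison of 2 arrays with 2 that was added after the values were seen, 7 of the 40 genes were at least 2-fold lower in *Id2*-/- and 0 were at least 2-fold higher. The shares of all tested probes were 1.90% lower and 1.30% higher. The 7 were *Sult1d1* (5.15-fold lower), *Cyp3a13* (3.76-fold), *Adh1* (2.76-fold), *Aldh1l1* (2.22-fold), *Ugt2b35* (2.16-fold), *Cyp2s1* (2.07-fold) and *Aldh3b1* (2.02-fold). None passed the adjusted test of limma, in which the smallest adjusted p was 0.077, for *Adh1*, with 0.126 for *Sult1d1* and *Cyp3a13* and 0.113 for *Ugt2b35*. Short of 2-fold, the differences without these arrays were -0.84 for *Gstm6*, -0.78 for *Ugt2b34* and -0.71 for *Aldh1b1*, against -0.40, -0.38 and -0.37 with all arrays.

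Markers of gut epithelium were also lower in the pairs numbered 2 and 3 on the *Id2*-/- side. That list has 30 genes, of which 23 had a probe and 21 were tested, *Cdx1* being above background on no array. Of the 21, 20 were lower in *Id2*-/- and 1, *Lgals4*, was higher, with a median difference of -0.31 and pair medians of 0.37, -0.52 and -0.85. In limma 3 genes (*Fabp1*, *Anxa13* and *Muc13*) were called lower with the block, where 1.12% of all tested probes were, and 0 without it. The study listed these 3 genes as lower on the same samples, so their calls are not independent evidence. The defining markers *Epcam*, *Cdh1* and *Cdx2* were above background on all 6 arrays. The log2 of the summed level of the list was 9.52, 10.83 and 11.09 in *Id2*+/+ and 9.99, 10.23 and 10.28 in *Id2*-/-, so that the *Id2*+/+ array numbered 1 was the lowest of the 6. It was also the lowest for the lists of mesenchyme (11.97), neurons (9.16), endothelium (6.19), blood (10.30) and liver (6.16). For pancreas and stomach it was not. The low reading of this array was therefore not particular to epithelium. In bulk RNA fewer cells of a type and less RNA per cell cannot be told apart, and the part of the epithelial share in the differences of *Sult1d1*, *Cyp3a13* and *Adh1* was not tested.

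Of 25 liver genes 22 had a probe and 6 were tested, all of them lower in *Id2*-/- (median -0.52) with a log2 summed level from 6.16 to 7.19 in *Id2*+/+ and from 6.33 to 6.54 in *Id2*-/-. With the block *Kynu* and *Slc27a2* were called lower, as were 1.12% of all tested probes, but in limma the adjusted p was 0.575 and 1 without the block and 0.363 and 0.242 with quantile normalization added to it. Of the liver genes 10, with the plasma protein genes *Fga*, *Fgb* and *Ahsg* among them, were above background on no array, while *Afp*, *Apoa1* and *Ttr* were above background on all 6. The 16 tested genes of mesenchyme and smooth muscle had a median difference of 0.04 and pair medians of 0.38, -0.09 and -0.29. The 7 tested genes each of neurons, endothelium and blood had medians of 0.07, 0.41 and 0.05. The 6 tested stomach genes had a median of 1.91, with 5 higher and 1 lower, and the 5 tested pancreas genes a median of 0.98, with 4 higher and 1 lower. In limma 0 genes of either list were called without the block. With the block 4 stomach genes, *Irx3*, *Irx5*, *Foxa2* and *Adcy8*, were called higher. So were 3 pancreas genes, *Clps*, *Pnliprp1* and *Pnliprp2*, where 1.06% of all tested probes were. By pair *Clps* differed by 0.57, 1.99 and 2.28, *Pnliprp1* by -0.88, 2.88 and 0.95 and *Pnliprp2* by 1.72, -0.10 and 1.36. The pairs of the last 2 thus did not share a direction. With quantile normalization added to the block 0 of all tested probes were called. The 4 stomach genes, like *Kynu* and *Slc27a2* of the liver list, were singled out by the study on these samples.

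The other genes of the pathway, its regulators, electron donors, cofactor enzymes and exporters, were read from a list of 63 genes, of which 49 had a probe and 29 were tested. In limma 0 of the 29 were called without the block, where the smallest unadjusted p was 0.105, and with it 0 were called higher and 1 lower. That gene was *Mgst2*, a microsomal glutathione transferase, which read 1.92, 3.31 and 4.11 in *Id2*+/+ and 1.89, 2.27 and 2.38 in *Id2*-/-. The difference was -0.93, with an adjusted p in limma of 0.0361 with the block and 0.585 once quantile normalization was added. Over the list 13 genes were higher and 16 lower, with a median of -0.04 and pair medians of 0.33, -0.15 and -0.36.

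The receptors *Ahr* and *Nr1i2*, which sense aromatic compounds and drugs, were above background on no array, and neither were *Ephx1*, *Aox1*, *Xdh* and the exporters *Abcb1b*, *Abcc1* and *Abcc2*. *Papss1*, which makes the sulfate donor of the sulfotransferases, read 7.62, 8.20 and 8.41 in *Id2*+/+ and 7.96, 7.98 and 7.83 in *Id2*-/-, a difference of -0.15 (95% confidence interval -0.80 to 0.50). *Cyb5a*, the electron donor of several P450s, differed by -0.08 (-0.82 to 0.66). *Keap1*, the sensor that holds the antioxidant response in check, differed by -0.10 (-0.86 to 0.66), *Akr1a1*, an aldehyde reductase, by 0.06 and *Fdx1*, the ferredoxin of mitochondrial P450s, by -0.23. *Fmo1*, a flavin monooxygenase, read 1.21, 0.69 and 0.31 against 0.94, 1.72 and 1.40, a difference of 0.62 with an unadjusted p of 0.105 in limma, and *Hmox1*, the heme oxygenase of the stress response, was 0.40 higher with an unadjusted p of 0.233.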

How the data were processed

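Total RNA from distal midgut of 3 *Id2*+/+ and 3 *Id2*-/- embryo samples (1 µg each) was amplified in one round and read on 1-color Applied Biosystems mouse genome survey arrays, 1 array per sample. The deposited intensity, the signal-to-noise score and the flag come from the scanner software. The normalized signal is the authors' intensity divided by a constant per array, which equals the median intensity of unflagged spots (708.0 to 1010.4). The deposited series table holds the same values. Spots flagged 5000 or higher were treated as bad, whereas the methods print the opposite direction.

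Log2 normalized signal was tested with limma 3.58.1 (lmFit, eBayes) in R 4.3.3 over 12741 probes, with Benjamini-Hochberg adjustment. Deviations from the genotype mean correlated between same-numbered arrays (r = 0.838, 0.644 and 0.579). By this check the numbers pair the arrays, although numbers 2 and 3 are not told apart (0.638 and 0.549 between arrays of unlike number), so the pairing is mainly that of number 1. The fit with that block is given where it changes a call, and it shares one variance among all probes. Symbols come from the platform annotation. All 119 probes matched RefSeq. Full values are given for the 3 tested genes per family whose probes read highest in *Id2*+/+ (a choice of what to show, not a ranking of transcripts), the 10 smallest p, 2-fold differences and genes above background in one genotype only. Members and lists were chosen with earlier results of these data known. The fits were tested on simulated data. Arrays give no depth, and having 3 per genotype limits precision.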

Additional observations from a re-analysis of the deposited data

How the results depend on the processing

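Over the 9 named member differences and 114 alternatives the direction was kept in all 114, and a call changed in 1, *Cyp3a13* with the replicate block (-1.53, adjusted p 4.78e-06 in limma). These 9 were picked by small p in the same data, and the block leaves a difference unchanged by design, so kept direction is little evidence. Other members changed sign without the arrays numbered 1, such as *Aldh1a1* (0.16 to -0.19) and *Cyp7a1* (0.26 to -0.16). The replicate block moved the calls over all tested probes from 0 to 278, over the member genes from 0 to 2 and over the pathway list from 0 to 1, and *Sult1d1* passed with it (-2.31, adjusted p 9.29e-14), while the block with quantile normalization called 0. At an unadjusted p under 0.05 there were 234 probes without the block, 879 with it and 242 by the methods' t-test, which called 0 after adjustment. The count of member genes at least 2-fold apart was 2, and it was 7 with both arrays numbered 1 left out and 4 with no limit on signal-to-noise. Leaving out each array in turn it ranged from 2 to 8, with 8 without the *Id2*+/+ array numbered 1, 4 without the *Id2*-/- array numbered 2 and 3 without the *Id2*-/- array numbered 3. Over the same omissions the difference of *Sult1d1* ranged from -2.71 to -1.98, with adjusted p of 0.492 to 1, and the median of the member genes from -0.38 to -0.05. The number of member genes above background in *Id2*+/+, 39, was 34 at a score of at least 5 and 45 when 2 of 3 arrays were enough. The cause of these changes was not tested.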

Other observations

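Among 10 probes that carry several symbols, member-type symbols included, and that belong to no single gene, 1 was tested. It is shared by *Cyp2c68* and *Cyp2c40*, P450s of a subfamily that oxidizes fatty acids and drugs, and read 1.79, 2.80 and 3.19 on the *Id2*+/+ arrays numbered 1, 2 and 3 and 1.61, 2.37 and 2.09 on the *Id2*-/- arrays, a log2 difference of -0.57. Which of these genes gave the signal cannot be told from the probe. The probe shared by *Ugt2b37*, *Ugt2b38* and *Ugt2b5* was above background on 2 *Id2*+/+ arrays and 1 *Id2*-/- array and differed by -1.14. The *Ugt1a* probe was above background on 2 arrays of each genotype, and that of *Gsta2* and *Gsta1* on 1 *Id2*+/+ array.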
